A study of Mus musculus with 6 samples.

Results

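The genes described here are the translation initiation and elongation factors of the mouse, taken as every protein-coding gene whose symbol begins with Eif or Eef. The eIF2α kinases (Eif2ak genes) and the sex-linked pair Eif2s3x and Eif2s3y were left out by the same rule. The rule gave 63 genes of the 54532 in the deposited table, of which 22046 are protein-coding. The rule itself used no expression value. Of the 63 genes, 56 had a mean of at least 1 FPKM (read fragments relative to the length of the gene and the size of the library) over the 6 libraries and were tested. The other 7 were not.

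The 6 RNA-seq libraries came from macrophages that were grown from bone marrow and then driven to the M1 state, an inflammatory activation, with LPS and IFN-γ. There were 3 libraries from NSUN2-KO mice and 3 from mice labelled NC, a label that is not spelled out. NSUN2 methylates cytosines of RNA, tRNAs above all. Nothing in the labels says how the knockout was made, how old the animals were or which animal gave which library, so p-values measure the spread between these libraries, and the effect of M1 activation itself cannot be read because all 6 were activated.

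In cap-dependent initiation, eIF4E binds the mRNA cap, the scaffold eIF4G and the helicase eIF4A join it, and eIF3 links this complex to the small ribosomal subunit. That subunit carries eIF1, eIF1A, eIF5 and eIF2 with the initiator tRNA, and it scans to a start codon. eIF2B recharges eIF2 with GTP, the 4E-BP proteins hold eIF4E away from eIF4G, and eIF5B joins the large subunit. During elongation eEF1A brings in aminoacyl-tRNAs, the eEF1B subunits recharge eEF1A, and eEF2 moves the ribosome along by a codon. In macrophages, control of initiation through eIF4E and eIF2 is known to shape which inflammatory mRNAs are translated.

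Transcript levels of this machinery were close between the groups. Of the 56 tested factors, 2 rose in NSUN2-KO macrophages, Eef1a1 and Eif4g2, and 0 fell (limma on log2(FPKM + 1), Benjamini-Hochberg adjusted p below 0.05 over all 9443 tested genes). Over all tested genes, 4.19% rose, 4.30% fell and 8.49% changed in either direction. Calls were thus no more frequent among the factors than in that background. At an unadjusted p below 0.05 there were 13 factors, 9 with a positive and 4 with a negative difference, and limma voom, run on whole reads worked out from FPKM and gene length, also called 0 lower. These 13 were 23.2% of the tested factors, against 25.5% of all tested genes. The 3 NSUN2-KO libraries lay wholly above the 3 NC libraries for 11 factors and wholly below for 5, together 28.6% of the tested factors. Among all tested genes the same was true of 31.1%, made up of 14.4% above and 16.7% below.

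The differences were small as well as few. The log2 difference, NSUN2-KO minus NC, lay between -0.23 for Eef2kmt and 0.19 for Eef1b2, with a median of 0.01 over the 56 factors and -0.01 over all tested genes. It was positive for 32 factors and negative for 24, that is 57.1% positive, where all tested genes had 48.2%. The median size of the difference without its sign was 0.07 for the factors and 0.08 for all tested genes. For 53 of the 56 factors (94.6%) the 95% interval lay within a 1.25-fold change of FPKM + 1 either way. For all tested genes that share was 74.7%, while the median level of the factors was 10.4 FPKM against 6.38 FPKM for all tested genes. The 3 factors whose interval reached past that limit were Eef1b2 (0.02 to 0.36), Eef1a2 (-0.20 to 0.39) and Eef2kmt (-0.41 to -0.04). For Eef1b2 and Eef2kmt these were the intervals of the most positive and the most negative estimate, not the widest ones. A difference in FPKM + 1 understates the change in FPKM, the more so the lower the gene, so for factors of a few FPKM the intervals span larger changes in FPKM.

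**Figure D1:**
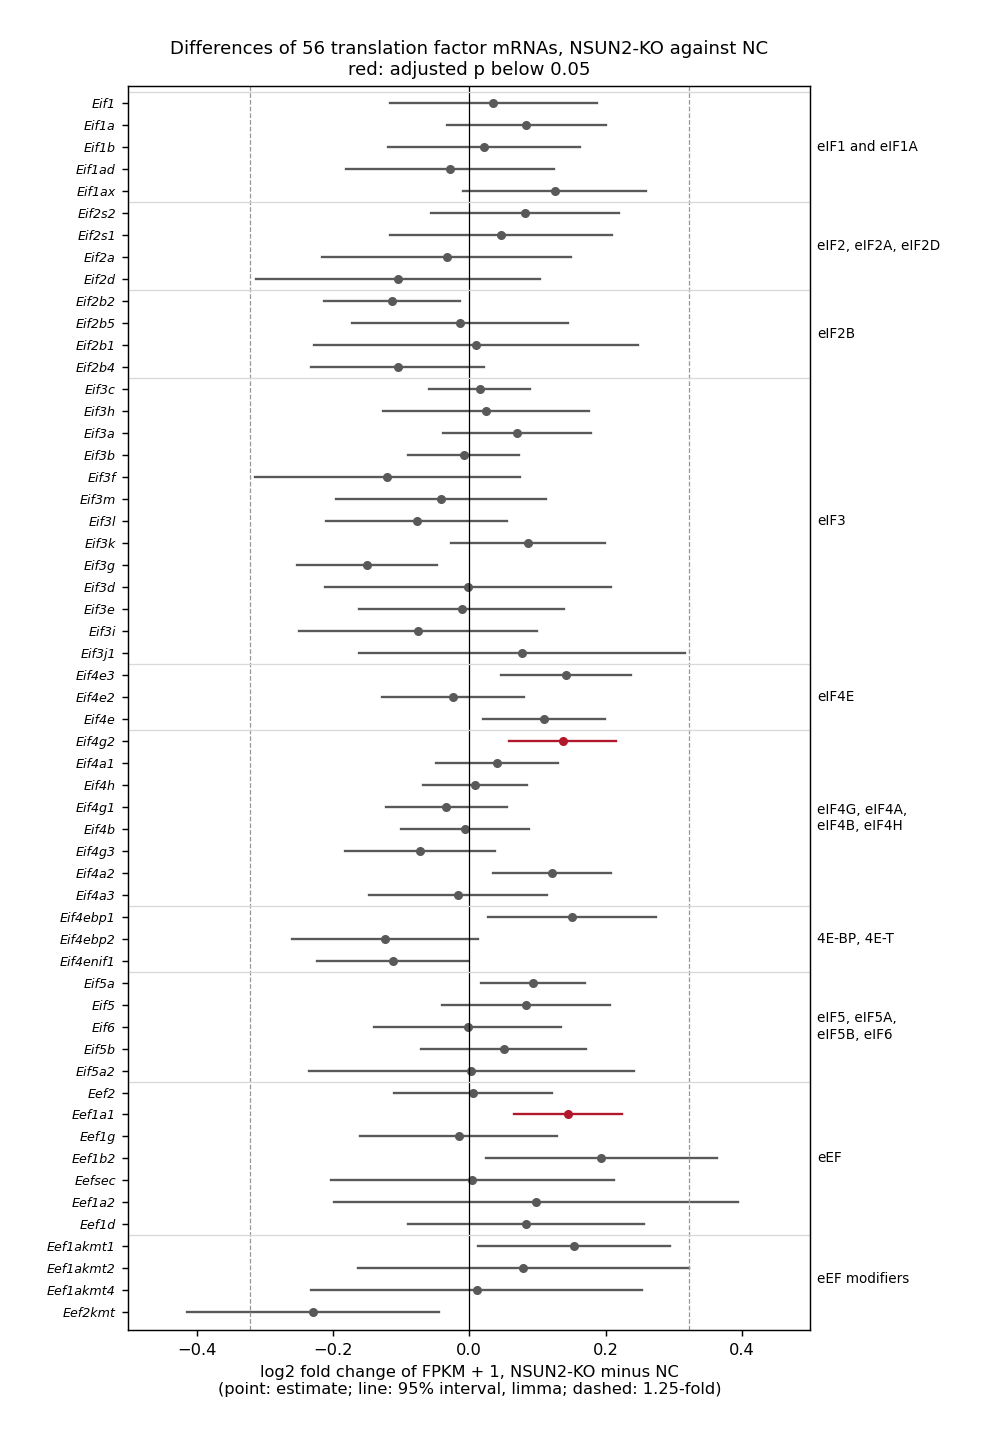
Log2 difference in FPKM + 1 (NSUN2-KO minus NC) for the 56 tested factors, grouped by role, with points for limma estimates and bars for 95% intervals. The 2 called factors, Eef1a1 and Eif4g2, sit at 0.14, and 53 of the 56 intervals stay inside the band of a 1.25-fold change of FPKM + 1.

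Some features of the libraries touch every value that follows. Depth was 35019033 to 45636131 reads over the listed genes, so 1 read in 1 kb of gene length was worth 0.0218 to 0.0285 FPKM. Nsun2, the targeted gene, had 0.967, 1.36 and 0.863 FPKM in NSUN2-KO libraries, against 1.88, 2.04 and 1.84 FPKM in NC libraries. It fell to 55.4% of its NC mean (log2 difference -0.51, SE 0.10, adjusted p = 0.0228 by limma). The call was lost in 5 of the 6 fits that left out 1 library (adjusted p-values of 0.0123 to 0.0848). The exact two-sided permutation p was 0.1, the smallest that 3 against 3 allows. The summed level of Ddx3y, Uty, Kdm5d and Eif2s3y, which lie on the Y chromosome, was 0 in each NSUN2-KO library and 13.9 to 14.6 FPKM in NC libraries, and Xist, the RNA that silences an X chromosome, averaged 30.6 ± 1.20 FPKM in NSUN2-KO and 14.5 ± 0.88 FPKM in NC (SD, n = 3 each). Every NC library thus held both Y-linked RNA and Xist (14.0 to 15.5 FPKM), so NC cannot be read as male cells alone. Genotype and the make-up of the cells by sex therefore cannot be told apart. Macrophage markers were present, with 3 of 7 lower and a sum of 3116 to 3160 FPKM in NSUN2-KO, against 3726 to 3813 FPKM in NC. Most of that gap was Lyz2, with 1163 FPKM in NSUN2-KO and 1736 FPKM in NC, while Adgre1 averaged 692 FPKM in NSUN2-KO and 645 FPKM in NC without being called. All 5 M1 markers rose, with a sum of 2854 to 2999 FPKM in NSUN2-KO and 2426 to 2481 FPKM in NC. Of 8 neutrophil markers 5 were tested and 3 fell (sums of 78.9 to 82.8 FPKM in NSUN2-KO, 97.7 to 105.6 FPKM in NC), and 1 of the 2 tested dendritic cell markers rose (sums of 8.06 to 9.23 FPKM in NSUN2-KO, 4.95 to 5.99 FPKM in NC). Stromal markers summed to 2.77 to 3.15 FPKM in NSUN2-KO and 3.73 to 4.00 FPKM in NC, with 0 of the 1 tested called. No T, NK or B cell marker reached the level for testing, and all 5 erythroid markers were at 0. The part of sex, of activation and of other cells in the values below was not tested. In bulk libraries, fewer cells of a type and less RNA per cell cannot be told apart.

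The factors differed far more from each other than between groups, and their order of level, all 6 libraries together, put the start-site factor Eif1 first at 158.2 FPKM. Eef2 followed with 126.2 FPKM, Eef1a1 with 113.8 FPKM, Eif4g2 with 74.7 FPKM and Eif4a1 with 62.9 FPKM. Every library had Eif1 (144 to 175 FPKM) above the range of Eef2 (119 to 135 FPKM). The ranges of Eef2 and Eef1a1 (106 to 123 FPKM) overlapped, and Eif4g2 (69.0 to 80.1 FPKM) lay below all 3. The authors' gene length merges all exons of a gene, so a gene with many alternative exons gets a low value. With the length of the longest annotated mRNA in its place, a choice added after seeing the data, the order became Eif1 at 251 FPKM, Eef1a1 at 158.2 FPKM, Eif4a1 at 153.6 FPKM, Eef2 at 135.9 FPKM and Eif4g2 at 94.9 FPKM. At the other end, Eif4e1b, a germline form of the cap-binding protein, and Eef1akmt3, an eEF1A methyltransferase, had 0 reads in all 6 libraries. A floor of 3 reads per library puts both at no more than 0.0379 and 0.0314 FPKM. The other untested factors were Eif2b3, Eif3j2, Eif4ebp3, Eef1e1 and Eef2k.

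**Figure D2:**
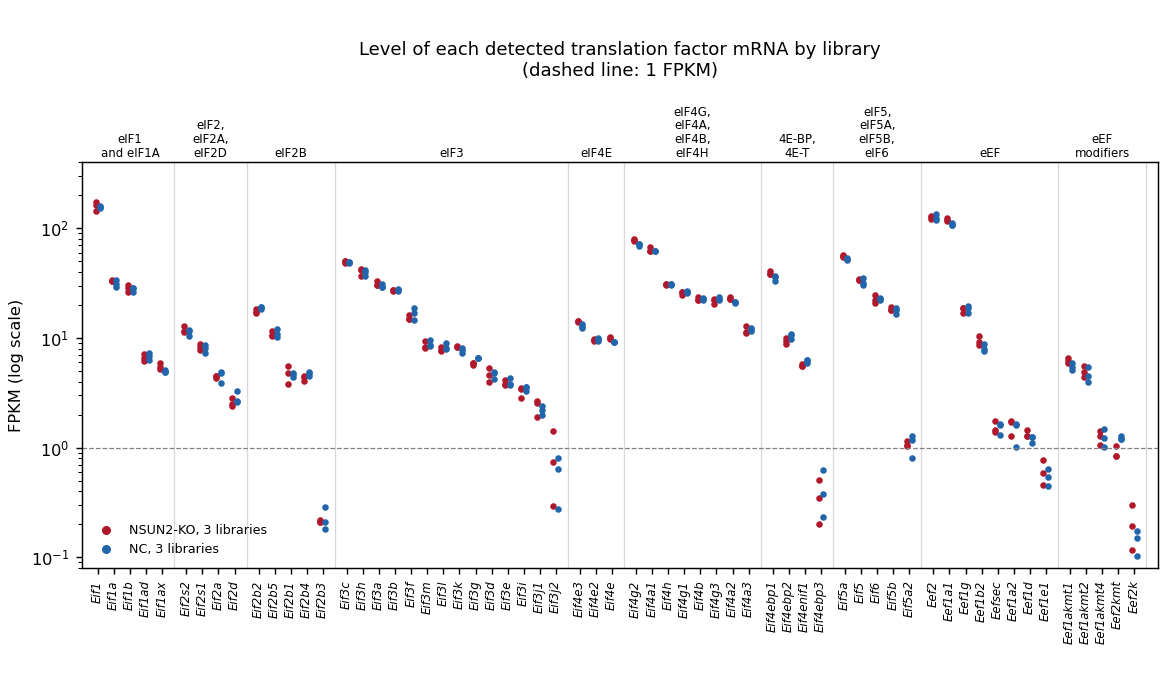
FPKM in each library (logarithmic axis) for the factors with reads, by role class, NSUN2-KO beside NC with 3 libraries each. Points run from well below 1 FPKM to 174.9 FPKM for Eif1 in NSUN2-KO and 161.0 FPKM in NC, and the groups' points lie close together for nearly every gene.

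Among the elongation factors, Eef1a1, the eEF1A form of most tissues, was 1 of the 2 factors that rose. Eef1a1 (ENSMUSG00000037742, GRCm38 chromosome 9, 78478449 to 78489151, minus strand) had 118.8, 123.4 and 116.5 FPKM in NSUN2-KO libraries, against 107, 106 and 111 FPKM in NC libraries. Every NSUN2-KO library was above every NC library. The means were 119.6 ± 3.54 FPKM in NSUN2-KO and 108 ± 2.65 FPKM in NC (SD, n = 3 each), a log2 difference of 0.14 (SE 0.03, 95% interval 0.07 to 0.22, limma adjusted p = 0.0418). The call was lost in each of the 6 fits that left out 1 library, with adjusted p-values of 0.0510 to 0.123, and without the filter on low values (0.118).

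Eef2, the translocase, had 129.5, 122 and 128 FPKM in NSUN2-KO libraries, against 119, 135 and 124 FPKM in NC libraries. The highest and the lowest of its 6 values were both NC libraries. The log2 difference was 0.0054 with a 95% interval of -0.11 to 0.12 (limma adjusted p = 0.959). Eef1b2, a subunit that recharges eEF1A, averaged 9.42 ± 0.91 FPKM in NSUN2-KO and 8.10 ± 0.56 FPKM in NC (SD, n = 3 each). Its log2 difference of 0.19 was the most positive of the factors, but the groups overlapped and it did not pass the test (limma adjusted p = 0.147). The estimates for the eEF1B subunits differed in sign, without any being called. Eef1g, the gamma subunit, averaged 18.2 FPKM in NSUN2-KO and 18.4 FPKM in NC, with a 95% interval of -0.16 to 0.13 for the log2 difference. Eef1d, the delta subunit, was the lowest tested member of the class with 1.33 ± 0.093 FPKM in NSUN2-KO and 1.20 ± 0.082 FPKM in NC (SD, n = 3 each). It had a log2 difference of 0.08 (limma adjusted p = 0.539). Eef1a2, the eEF1A form of muscle and neurons, had 81 to 153 reads per library and averaged 1.57 FPKM in NSUN2-KO and 1.42 FPKM in NC. Eefsec, which delivers selenocysteine tRNA, averaged 1.53 FPKM in both groups. In all, 6 of the 7 tested elongation factors had a positive difference, with a median of 0.08.

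Among the enzymes that modify elongation factors, 4 of 6 were tested and 0 were called. Eef1akmt1, a lysine methyltransferase of eEF1A, had 6.10, 5.96 and 6.49 FPKM in NSUN2-KO libraries, against 5.44, 5.07 and 5.88 FPKM in NC libraries. Its groups did not overlap, with a log2 difference of 0.15 (SE 0.06, limma adjusted p = 0.162). Eef2kmt, which methylates a lysine of eEF2, had 1.03, 0.830 and 0.845 FPKM in NSUN2-KO libraries, against 1.21, 1.19 and 1.29 FPKM in NC libraries. All NSUN2-KO values lay below all NC values, and the log2 difference of -0.23 was the most negative of the factors (SE 0.08, limma adjusted p = 0.120), on 78 to 146 reads per library. The gene span of Eef2kmt overlaps that of Alg1 on the other strand by 761 bases. Overlap of exons was not measured and the strand setting of the counting is not given, so reads there may not be told apart. Eef2k, the kinase that inhibits eEF2, was below the level for testing.

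Eif4g2, also called DAP5, is a relative of eIF4G that lacks the part that binds eIF4E and serves initiation that does not need the cap. Eif4g2 (ENSMUSG00000005610, GRCm38 chromosome 7, 111067750 to 111083030, minus strand) had 78.3, 80.1 and 76.3 FPKM in NSUN2-KO libraries, against 72.4, 69.0 and 71.9 FPKM in NC libraries. Every NSUN2-KO library was above every NC library. The means were 78.3 ± 1.89 FPKM in NSUN2-KO and 71.1 ± 1.82 FPKM in NC (SD, n = 3 each). The log2 difference was 0.14 (SE 0.03, 95% interval 0.06 to 0.22, limma adjusted p = 0.0471). As for Eef1a1, leaving out any of the 6 libraries took the adjusted p past the threshold (0.0568 to 0.147). It did so too without the filter (0.115) and in a fit freed of the trend over GC content and length, where the log2 difference was 0.089 (adjusted p = 0.0806).

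The canonical scaffolds, which do bind eIF4E, lay the other way in sign without passing the test. Eif4g1 averaged 25.5 FPKM in NSUN2-KO and 26.2 FPKM in NC, and Eif4g3 21.6 FPKM in NSUN2-KO and 22.8 FPKM in NC. Of the helicases, Eif4a2 averaged 23.0 ± 0.70 FPKM in NSUN2-KO and 21.1 ± 0.38 FPKM in NC (SD, n = 3 each), with no overlap and a log2 difference of 0.12 (limma adjusted p = 0.0905). Eif4a1, the main helicase of initiation, had a log2 difference of 0.04 with a 95% interval of -0.05 to 0.13. Reads of Eif4a1 are uncertain because a processed copy, Eif4a-ps4, was itself listed at 52.7 ± 2.87 FPKM in NSUN2-KO and 55.9 ± 1.79 FPKM in NC, nearly the level of its parent (SD, n = 3 each). Eif4a3, the form found in the exon junction complex, was the lowest of the class with 11.8 ± 0.85 FPKM in NSUN2-KO and 11.9 ± 0.44 FPKM in NC (SD, n = 3 each). Its log2 difference was -0.02 (limma adjusted p = 0.896). The helicase cofactors Eif4b and Eif4h averaged 22.5 and 30.9 FPKM in NSUN2-KO and 22.6 and 30.7 FPKM in NC.

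Of the 3 tested cap-binding proteins, Eif4e and Eif4e3 had every NSUN2-KO library above every NC library, and 0 were called. Eif4e, the cap-binding protein, had 9.85, 10.1 and 9.94 FPKM in NSUN2-KO libraries, against 9.13, 9.27 and 9.12 FPKM in NC libraries. Its log2 difference was 0.11 (SE 0.04, limma adjusted p = 0.126). Eif4e3, a divergent cap-binding relative, had 14.2, 14.2 and 14.1 FPKM in NSUN2-KO libraries, against 13.3, 12.7 and 12.3 FPKM in NC libraries. The 3 NSUN2-KO values were nearly equal, and the log2 difference of 0.14 (SE 0.04) had a limma adjusted p of 0.0760. Eif4e2, which takes part in translational repression, averaged 9.56 FPKM in NSUN2-KO and 9.74 FPKM in NC.

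The proteins that bind eIF4E and hold it back gave 0 calls among 3 tested genes and lay on both sides of 0. Eif4ebp1 (4E-BP1), the target of mTORC1, had 38.1, 38.2 and 41.1 FPKM in NSUN2-KO libraries, against 32.7, 37.0 and 35.8 FPKM in NC libraries. The groups did not overlap, with a log2 difference of 0.15 (SE 0.05, limma adjusted p = 0.125). Eif4ebp2 averaged 9.44 ± 0.60 FPKM in NSUN2-KO and 10.4 ± 0.57 FPKM in NC (SD, n = 3 each), with overlapping groups and a log2 difference of -0.12 (limma adjusted p = 0.237). Eif4enif1 (4E-T), which carries eIF4E into the nucleus and into P-bodies, averaged 5.61 ± 0.18 FPKM in NSUN2-KO and 6.15 ± 0.19 FPKM in NC (SD, n = 3 each). Its groups did not overlap, and the log2 difference was -0.11 (limma adjusted p = 0.192). Eif4enif1 lies opposite Drg1 by gene span, introns included. Reads of the pair may not be told apart either where exons overlap, which was not measured.

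**Figure D3:**
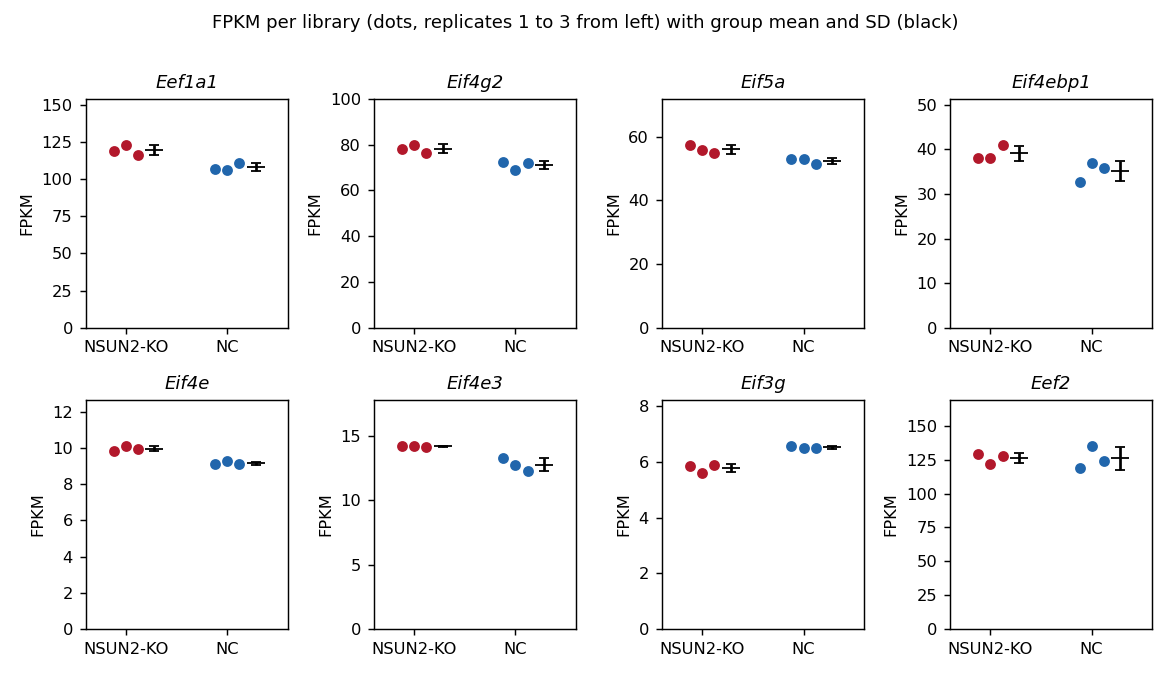
FPKM in each library, NSUN2-KO left of NC, for selected factors, with each group's mean and SD over 3 libraries drawn in black beside the points. The NSUN2-KO points of Eef1a1 (116.5 to 123.4 FPKM) and Eif4g2 (76.3 to 80.1 FPKM) lie above all NC points, while those of Eef2 fall inside the NC range.

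eIF3, the largest initiation factor, had 13 of its 14 members tested and 0 called, with 5 positive and 8 negative differences and a median of -0.01. Eif3c, part of the core that holds the complex together, was its most abundant member with 48.1 to 50.1 FPKM in NSUN2-KO libraries, against 48.1 to 49.6 FPKM in NC libraries. The groups nearly coincided, with a log2 difference of 0.02 and a 95% interval of -0.06 to 0.09. Eif3g, an RNA-binding subunit, had 5.84, 5.60 and 5.90 FPKM in NSUN2-KO libraries, against 6.59, 6.49 and 6.501 FPKM in NC libraries. It was the single eIF3 member with all NSUN2-KO libraries below all NC libraries (log2 difference -0.15, SE 0.04, limma adjusted p = 0.0804). Eif3k was the single one with all above, at 8.18 to 8.47 FPKM in NSUN2-KO and 7.35 to 8.16 FPKM in NC (log2 difference 0.09, limma adjusted p = 0.321). Eif3j1, encoding the loosely bound subunit, was lowest at 2.37 ± 0.42 FPKM in NSUN2-KO and 2.19 ± 0.22 FPKM in NC (SD, n = 3 each). It had a log2 difference of 0.08 (limma adjusted p = 0.692). Its reads are uncertain because Eif3j2 is a near copy, and the gene span of Spg11, at 10.9 FPKM, overlaps it on the other strand. Across the 13 tested members the levels ran from 49.1 FPKM (Eif3c) to 2.28 FPKM (Eif3j1), and the untested Eif3j2 had 0.693 FPKM. These levels depend on the gene length used. Eif3e had 3.91 FPKM with the authors' length, which is 4.46 times its longest mRNA, and 17.4 FPKM with the length of that mRNA.

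The class of start-site factors, in which Eif1ad was counted too, gave 0 calls among 5 tested members. The difference was positive for 4 of them and negative for Eif1ad (log2 difference -0.03). Eif1, which guards start-codon choice, had 162, 175 and 144 FPKM in NSUN2-KO libraries, against 152, 155 and 161 FPKM in NC libraries. The NSUN2-KO libraries spread on both sides of the NC range, with a log2 difference of 0.04 (SE 0.07, limma adjusted p = 0.782). Eif1ax, the X-linked gene for eIF1A, averaged 5.51 ± 0.39 FPKM in NSUN2-KO and 4.96 ± 0.14 FPKM in NC (SD, n = 3 each). Its groups did not overlap, and the log2 difference was 0.13 (limma adjusted p = 0.224). The autosomal copy Eif1a averaged 33.3 FPKM in NSUN2-KO and 31.4 FPKM in NC, and similar sequences can share reads between the 2 genes.

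Of the eIF2 subunits, Eif2s1 (alpha), whose phosphorylation halts initiation under stress, averaged 8.27 ± 0.60 FPKM in NSUN2-KO and 7.99 ± 0.66 FPKM in NC (SD, n = 3 each). Eif2s2 (beta) was the highest of the class with 11.9 ± 0.71 FPKM in NSUN2-KO and 11.2 ± 0.71 FPKM in NC (SD, n = 3 each). Its log2 difference was 0.08 (limma adjusted p = 0.440). Eif2d, which can deliver tRNA without eIF2, was the lowest with 2.57 ± 0.24 FPKM in NSUN2-KO and 2.84 ± 0.41 FPKM in NC, a log2 difference of -0.10 (limma adjusted p = 0.518). Its reads may be uncertain too, since the gene span of Rassf5 overlaps it on the other strand. The gamma subunit, which binds the initiator tRNA, is encoded on the sex chromosomes and is not among the 63 genes. It is given here, after its values were seen, because of the sex-linked difference. Eif2s3x averaged 13.4 ± 0.52 FPKM in NSUN2-KO and 10.7 ± 0.13 FPKM in NC, and Eif2s3y had 0 reads in each NSUN2-KO library, a floor of at most 0.0206 FPKM, and 5.51 ± 0.17 FPKM in NC (SD, n = 3 each). Eif2s3x had a log2 difference of 0.29 (limma adjusted p = 0.00752).

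The eIF2B exchange factor had 4 of 5 members tested, 0 called and 3 with a negative difference. Eif2b2 (beta), the most abundant, had 16.7, 17.3 and 18.3 FPKM in NSUN2-KO libraries, against 19.0, 18.5 and 19.3 FPKM in NC libraries. The groups did not overlap, though the nearest libraries differed little (log2 difference -0.11, SE 0.04, limma adjusted p = 0.148). Eif2b4 (delta), the lowest tested, averaged 4.32 ± 0.21 FPKM in NSUN2-KO and 4.72 ± 0.17 FPKM in NC (SD, n = 3 each). Its groups did not overlap either, with a log2 difference of -0.11 (limma adjusted p = 0.278), and it shares 204 bases with Snx17 on the other strand.

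Among the factors of subunit joining and hypusine, 4 of 5 had a positive difference and 0 were called. Eif5a, the only known carrier of the amino acid hypusine together with its copy Eif5a2, had 57.5, 55.8 and 54.8 FPKM in NSUN2-KO libraries, against 52.9, 53.1 and 51.4 FPKM in NC libraries. All NSUN2-KO libraries lay above all NC libraries, with a log2 difference of 0.09 (SE 0.03, limma adjusted p = 0.123). In the fit freed of the trend over GC content and length it was called, with a log2 difference of 0.15 (adjusted p = 0.0320), and the called factors in that fit were Eef1a1 and Eif5a. Eif5a2 averaged 1.08 ± 0.069 FPKM in NSUN2-KO and 1.09 ± 0.25 FPKM in NC (SD, n = 3 each), a log2 difference of 0.0029 (limma adjusted p = 0.989). Eif5, which triggers GTP hydrolysis on eIF2, averaged 34.3 FPKM in NSUN2-KO and 32.3 FPKM in NC, and Eif6, which keeps the large subunit apart, averaged 22.7 FPKM in both.

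The difference ran with the base composition of the transcript, in these genes as in all others. Spearman's rho between the log2 difference and GC content was -0.375 over the 56 factors and -0.374 over 9433 tested genes, a description across genes, which share the same 6 libraries. Of the 16 factors under 45% GC, 13 had a positive difference (median 0.08), where all tested genes in that range had 71.2% positive (median 0.05). Of the 18 factors at 52% GC or more, 7 had a positive difference (median -0.01), where all tested genes had 28.3% positive (median -0.06). Eef1a1 lies at 47.4% GC and Eif4g2 at 43.2%. The part of base composition in the single differences was not tested beyond the fit with the trend removed.

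**Figure D4:**
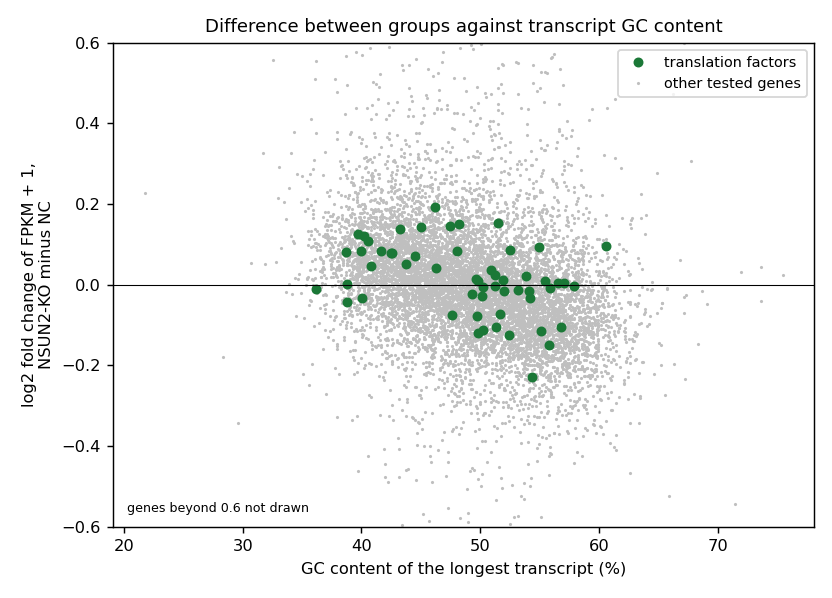
Log2 difference (NSUN2-KO minus NC) against the GC content of the transcript in percent, for the 56 tested factors over all tested genes. Both fall from left to right, with Spearman's rho of -0.375 for the factors and -0.374 for all tested genes.

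Promoter sequence was available for 47 of the 63 factors by symbol, as 300 bases around each annotated start (RefSeq, GRCm38.p6). The E-box CACGTG, the site read by MYC and its partner MAX, was in 14 of the 57 windows of tested factors (24.6%), against 10.3% of windows of all tested protein-coding genes. The GC box GGGCGG was in 71.9% of the factors' windows and 64.0% of all windows, the CCAAT box in 24.6% and 37.3%, the TATA box TATAAA in 7.02% and 6.78%, and TTCCGG, a core read by ETS factors, in 47.4% and 30.3%, counting both strands. These are descriptions of letters in a window, not of binding. The 4 stretches printed here run from 120 bases before to 30 bases from the start, with capitals for the E-box, the GC box and the TATA box on either strand. Eef1a1 is shown as the called factor with an entry, Eef2 as the abundant elongation factor with nearly equal group means, and Eif4e and Eif4g1 as the cap-binding protein and its scaffold. They lie at chr9:78481695-78481844 (minus strand, Eef1a1), chr10:81176511-81176660 (plus strand, Eef2), chr3:138527148-138527297 (plus strand, Eif4e, the start with an E-box) and chr16:20672607-20672756 (plus strand, Eif4g1).
Eef1a1: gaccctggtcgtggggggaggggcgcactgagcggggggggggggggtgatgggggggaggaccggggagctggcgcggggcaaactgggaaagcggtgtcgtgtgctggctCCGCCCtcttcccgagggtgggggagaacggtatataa
Eef2: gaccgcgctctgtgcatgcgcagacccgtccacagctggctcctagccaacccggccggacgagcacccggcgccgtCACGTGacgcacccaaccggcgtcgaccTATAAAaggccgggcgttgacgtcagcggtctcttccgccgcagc
Eif4e: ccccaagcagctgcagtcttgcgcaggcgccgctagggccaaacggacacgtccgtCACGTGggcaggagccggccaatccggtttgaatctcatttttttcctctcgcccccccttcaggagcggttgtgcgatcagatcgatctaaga
Eif4g1: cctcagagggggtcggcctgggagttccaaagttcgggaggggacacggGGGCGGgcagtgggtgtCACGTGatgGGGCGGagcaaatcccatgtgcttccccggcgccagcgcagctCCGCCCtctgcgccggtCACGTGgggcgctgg

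Whether the E-box in these windows went with the difference between groups was not tested. The 12 tested factors with CACGTG were Eef1akmt4, Eef2, Eif1b, Eif3a, Eif3f, Eif3k, Eif4a1, Eif4e, Eif4g1, Eif4h, Eif5a and Eif5a2. Their log2 differences lay between -0.12 and 0.11 with a median of 0.02, and 10 were positive. The 33 tested factors with an entry and no CACGTG had a median of -0.01, and 15 were positive. Over all tested genes 48.2% were positive, a share that was not split by the E-box. The window of Eef1a1 held no CACGTG.

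Outside the 63 factors, 64 other genes of translation were listed by role, of which 53 were tested, 2 rose (3.77%) and 1 fell (1.89%), against 4.19% and 4.30% of all tested genes. The kinases and phosphatase subunits of eIF2α with the GCN2 regulators Impact and Gcn1l1 (8 tested), the genes of hypusine and diphthamide synthesis (4 tested) and the mitochondrial translation factors (8 tested) gave 0 calls. Denr, which with MCTS1 recycles the small subunit and allows reinitiation, had 9.47, 9.85 and 9.75 FPKM in NSUN2-KO libraries, against 6.56, 6.42 and 6.89 FPKM in NC libraries. The gap between the groups was several times their spread, and Denr rose by a log2 difference of 0.49 (SE 0.04, limma adjusted p = 0.00107), more than any of the 56 factors. It was called in all 18 alternative fits. Pabpc1, the poly(A)-binding protein that contacts eIF4G, averaged 93.7 ± 2.28 FPKM in NSUN2-KO and 84.6 ± 1.25 FPKM in NC (SD, n = 3 each). It rose by 0.14 on the log2 scale (limma adjusted p = 0.0301), a call that held in 1 of the 6 fits without a library (adjusted p-values of 0.0401 to 0.130). Mknk1, a kinase that phosphorylates eIF4E, averaged 14.5 ± 0.21 FPKM in NSUN2-KO and 16.3 ± 0.27 FPKM in NC (SD, n = 3 each). It fell by 0.16 on the log2 scale (limma adjusted p = 0.0365), and the call was lost in all 6 of those fits (0.0617 to 0.122).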

How the data were processed

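Total RNA was extracted with TRIzol and sequenced as RNA-seq libraries, per the labels' protocols. The submitters' processing notes list the build GRCm38 (mm10) and the tools DESeq2 1.20.0, featureCounts 1.5.0-p3, HISAT2 2.0.5, fastp and CASAVA 1.8. What each did, its settings, the annotation and the strand stand in no source used here. The authors deposited FPKM values and the gene length used for them. The design text gives 3 replicates per group and, elsewhere, 2 per condition; the table holds 3. Columns of unassigned samples numbered 0.

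FPKM times length gave whole reads for 100% of values (tolerance 0.01), from which the reads per library were recovered. Intervals and floors from reads cover counting error only. No pair of libraries was a duplicate: the mean chi-square per gene, for genes reaching 50 reads in that pair, came to 5.66 to 11.6 inside a group and 19.3 to 30.3 across groups. Genes averaging 1 FPKM or more were fitted on log2(FPKM + 1) in limma 3.58.1 under R 4.3.3, using a trended prior variance and no covariate, and p-values were adjusted by Benjamini-Hochberg over all of them. The test was checked on simulated data. GC content and mRNA lengths came from GENCODE vM21, and Python 3.11.15 with pandas 2.3.3 and matplotlib 3.10.9 made tables and figures. Full statistics are given for called factors and the highest and lowest tested factor of each role class. Eif1a, Eif1b, Eif2s1, Eif3g, Eif4a1, Eif4a2, Eif4ebp2, Eef1b2 and others given beside them were chosen after their values were seen. The factors, role classes and lists were chosen with earlier results of these data known. Alternatives were other pseudocounts, filters, scalings and tests, a replicate block, removal of the trend over GC content and length (loess, span 0.5), leaving out each library and, added after seeing the data, leaving out genes on X and Y.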

Additional observations from a re-analysis of the deposited data

How the results depend on the processing

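The 18 alternatives called at most 2 factors higher and 0 lower. The 2 higher calls became 0 without a filter on low values, without a mean-variance trend, with a replicate block, and in all 6 fits without a library (0 to 0; lower 0 to 0). Over all tested genes, 396 rose and 406 fell. Without a filter 147 rose and 118 fell, with limma voom 706 rose and 666 fell, without a trend 254 fell, with TPM 247 fell, and without a library 149 to 312 rose and 121 to 283 fell. The replicate block gave 190 higher and 161 lower. Deviations from the group means were hardly correlated between same-numbered libraries (r of -0.0298 to 0.00343) or differently numbered ones (-0.0359 to 0.0455). The labels do not say whether the numbers pair the samples, and these correlations cannot settle it. For the other translation genes, 2 higher and 1 lower became 1 and 0 without a filter, without a trend and with the block, 0 lower with TPM, 2 lower with voom, and 1 to 2 higher and 0 to 0 lower without a library. Nsun2 kept its log2 difference of -0.51 without a filter, at a limma adjusted p of 0.113, and had -0.61 to -0.44 without a library. The sign turned for factors near 0: Eif4a3 at 0.025 and Eif5a2 at -0.064 with the GC and length trend removed, and Eif5a2 at -0.00050 with a pseudocount of 5 FPKM. Without a library, Eif1 ranged from -0.029 to 0.11, Eif4a3 from -0.069 to 0.018, Eif5a2 from -0.097 to 0.072 and Eef2 from -0.035 to 0.058. The cause was not tested. Factors under about 2 FPKM rest on few reads, which limits what can be seen for them.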
